A study of Mus musculus with 24 samples.

Results

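Prostaglandin synthases and receptors were followed in adipocytes grown in culture from mouse white fat. The set held 10 genes of the 53465 in the count table, taken by symbol whatever their level: the synthases Ptgs1, Ptgs2, Ptges, Ptgis and Ptgds, and the receptors Ptger1, Ptger2, Ptger3, Ptger4 and Ptgfr. Of these, 8 passed the filter on low counts and were tested among 14785 genes, while Ptgds and Ptger2 did not and are described from their counts. Stromal vascular cells of epididymal (eWAT) and inguinal (iWAT) fat were differentiated and treated with an siRNA, and their poly(A) RNA was sequenced as 24 libraries, 3 in each of 8 groups. All groups were induced for 2 days with dexamethasone, 0.1 mg/ml insulin and 0.5 mmol/l IBMX, a phosphodiesterase inhibitor that raises cAMP, then given 1 µg/ml insulin alone for 5 more days, with 10% serum throughout. In each depot the groups were aKO cells with siC/EBPb, aKO cells with siNS, Cont cells with siC/EBPb and Cont cells with siNS. The aKO cells carried Senp2flox/flox and Adipoq Cre, and the Cont cells carried Senp2flox/flox without Cre, so floxed Senp2, a gene for a SUMO protease, was shared by all groups. The Adipoq promoter drives Cre in fat cells once they differentiate, so undifferentiated and other cells of these cultures keep the gene. siC/EBPb targets Cebpb, a transcription factor of early fat cell differentiation, and the labels do not explain siNS or give the age of the mice. The labels do not say whether the 3 replicates were separate animals or cultures, so the p-values cover no more than the scatter of these libraries, which may be technical.

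Prostaglandins are short-lived lipid signals made from arachidonic acid that phospholipases release from membranes. The cyclooxygenases COX-1 (Ptgs1) and COX-2 (Ptgs2) turn it into the common precursor prostaglandin H2, and terminal synthases then make prostaglandin E2 (Ptges), prostacyclin (Ptgis) or prostaglandin D2 (Ptgds). Each product acts on its own receptors, EP1 to EP4 (Ptger1 to Ptger4) for prostaglandin E2 and FP (Ptgfr) for prostaglandin F2α. In fat, prostaglandin E2 acting on EP3 is known to restrain lipolysis, prostacyclin is known to favour the conversion of precursors into fat cells, and prostaglandin F2α is known to oppose it.

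Because the changes described here centre on the 2 cyclooxygenase genes, the 250 bases before their transcription starts are shown, from RefSeq on GRCm38.p6, 5′ to 3′ on the gene's strand. Capitals mark a match to TTGCNNAA, a pattern of the sites that C/EBP proteins bind, searched on both strands.
Ptgs2, chr1:150099781-150100030, plus strand: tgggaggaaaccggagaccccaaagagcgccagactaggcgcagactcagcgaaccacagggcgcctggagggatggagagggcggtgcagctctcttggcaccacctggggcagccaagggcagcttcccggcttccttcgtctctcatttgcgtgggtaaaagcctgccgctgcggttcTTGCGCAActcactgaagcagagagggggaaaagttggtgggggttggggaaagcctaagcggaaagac
Ptgs1, chr2:36230176-36230425, plus strand: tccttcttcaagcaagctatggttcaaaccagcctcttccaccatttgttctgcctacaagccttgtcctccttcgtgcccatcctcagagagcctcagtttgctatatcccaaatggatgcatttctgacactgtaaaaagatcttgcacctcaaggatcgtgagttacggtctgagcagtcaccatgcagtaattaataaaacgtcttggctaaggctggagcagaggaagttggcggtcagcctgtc
The capitals in the Ptgs2 sequence lie 69 to 62 bases before the start and read the same on both strands. Entries were matched for 8 of the 10 genes, and this was the only match to TTGCNNAA, TGACG or TATAAA in their 250 bases. Bases after the RefSeq start were not searched, so an absent match speaks only for these windows. Among 27025 promoters of the same length, 9.55% held TTGCNNAA, 17.9% held TGACG and 13.0% held TATAAA. A match of letters is a description and shows no binding.

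Gene counts ranged from 8435494 to 15388744 in 23 libraries and were 603585 in iWAT aKO siNS replicate 2, where 93.3% of reads were not aligned. Counts were scaled to CPM with TMM library factors, so that libraries of different depth share 1 scale. Replicate 1 of the aKO siC/EBPb group stood apart in both depots and had the highest Ptgs2, the lowest Cebpb and the lowest summed adipocyte markers of its group. Results that rest on these libraries are given with and without them. Adjusted p-values are from edgeR's quasi-likelihood test with Benjamini-Hochberg adjustment over the 14785 genes, called at 0.05, and fold changes are log2 values ± their standard error.

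The siRNA lowered its target in every group. In eWAT, Cebpb had 20.1, 32.5 and 29.4 CPM in aKO siC/EBPb libraries against 141, 157 and 155 CPM in aKO siNS libraries. It had 57.3, 42.3 and 51.4 CPM in Cont siC/EBPb libraries against 156, 166 and 181 CPM in Cont siNS libraries. In iWAT the values were 12.7, 19.2 and 23.5 CPM in aKO siC/EBPb against 114, 103 and 127 CPM in aKO siNS, and 36.7, 37.6 and 33.7 CPM in Cont siC/EBPb against 145, 110 and 118 CPM in Cont siNS. Under siC/EBPb, Cebpb was lower in aKO than in Cont cells, by -0.88 ± 0.17 in eWAT (adjusted p = 0.00134) and -0.97 ± 0.19 in iWAT (adjusted p = 0.00155), so within siC/EBPb cultures the genotype and the remaining Cebpb cannot be told apart. Senp2 spanned 43.6 to 57.2 CPM over the 24 libraries and was not called in any contrast of genotype. The count table has 1 value per gene and shows neither the reads of the floxed exons nor the share of cells with Cre, so the deletion is not shown by these data, and aKO and Cont are the labelled genotypes throughout.

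Marker genes of the cell types that such cultures can hold moved with the groups, and in bulk RNA fewer cells of a type and less RNA per cell cannot be told apart. The 10 adipocyte markers were all detected and summed in eWAT to 607 to 1155 CPM in aKO siC/EBPb, 2427 to 2691 in aKO siNS, 873 to 1222 in Cont siC/EBPb and 1673 to 2195 in Cont siNS. The 11 macrophage and leukocyte markers summed there to 78.7 to 169, 1409 to 1486, 296 to 341 and 1715 to 2367 CPM in the same order of groups, with Cd3e at 0 counts in all 24 libraries. The 8 smooth muscle and pericyte markers summed to 3320 to 4497, 1298 to 1334, 3026 to 3076 and 1499 to 1740 CPM. In iWAT the adipocyte sums were 735 to 1354, 2914 to 3739, 1153 to 1512 and 2042 to 2772 CPM, and the leukocyte sums were 65.1 to 149, 783 to 1425, 286 to 310 and 1626 to 2256 CPM. Of the other lists, the 8 mesothelial markers summed in eWAT to 6.74 to 7.53 CPM in aKO siC/EBPb, 6.09 to 7.44 in aKO siNS, 27.2 to 28.9 in Cont siC/EBPb and 25.5 to 26.2 in Cont siNS, and the 8 endothelial and 5 mast cell markers stayed between 30.4 and 48.1 CPM and between 0.812 and 1.85 CPM. The 10 fibroblast and progenitor markers, which include collagens, summed there to 24790 to 37340 CPM. The part of these markers in the results that follow was not tested.

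Ptgis and Ptges had the highest levels of the 10 genes, and Ptger2 and Ptgds the lowest. Per length, over all 24 libraries, the mean level was 29.2 RPKM for Ptgis, 15.2 for Ptges, 5.52 for Ptgs1 and 5.16 for Ptgs2. The receptors followed with 1.53 RPKM for Ptgfr, 1.49 for Ptger3, 1.00 for Ptger4 and 0.268 for Ptger1, and Ptger2 and Ptgds were near 0 at 0.0579 and 0.0162. The order of Ptgis over Ptges held in 23 of 24 libraries, but Ptgs1 exceeded Ptgs2 in 18 and Ptgfr exceeded Ptger3 in 14, so neighbours in the middle of the order were not separated. Ptgs2 varied most among the 4 tested synthases, from a group mean of 1.33 RPKM in eWAT aKO siNS to 10.5 RPKM in iWAT aKO siC/EBPb, a range of 7.95-fold. In eWAT aKO siNS cells the receptors Ptger3 (2.60 RPKM) and Ptgfr (2.32 RPKM) overlapped Ptgs1 (2.44 RPKM) between libraries and stood above Ptgs2 (1.33 RPKM).

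Ptgs2 was low in aKO siNS cells and highest in aKO siC/EBPb cells, while the siRNA left no called change in Cont cells. COX-2 is the inducible cyclooxygenase, encoded on chr1:150100031-150108227 of GRCm38. In eWAT, Ptgs2 had 69.1, 27.8 and 37.8 CPM in aKO siC/EBPb, 6.23, 6.56 and 5.44 CPM in aKO siNS, 18.3, 21.9 and 18.6 CPM in Cont siC/EBPb, and 20.2, 23.9 and 20.8 CPM in Cont siNS. The iWAT libraries had 70.1, 38.2 and 36.5 CPM in aKO siC/EBPb, 7.22, 5.92 and 7.98 CPM in aKO siNS, 19.9, 23.9 and 23.8 CPM in Cont siC/EBPb, and 19.3, 21.4 and 16.5 CPM in Cont siNS. In both depots every aKO siNS library was below every other library, and every aKO siC/EBPb library was above every other library. The value of iWAT aKO siNS replicate 2, the shallow library, was 3 counts.

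With siNS, Ptgs2 was 3.57-fold lower in aKO than in Cont cells of eWAT (-1.84 ± 0.35, adjusted p = 9.32e-04) and 2.53-fold lower in iWAT (-1.34 ± 0.41, adjusted p = 0.0343). The iWAT call was lost when any of 4 single libraries was left out, with adjusted p-values of 0.0778 and 0.0879 without Cont siNS replicates 1 and 2, and 0.133 and 0.122 without aKO siNS replicates 1 and 3. In aKO cells siC/EBPb raised Ptgs2 7.43-fold in eWAT (2.89 ± 0.33, adjusted p = 1.19e-06) and 6.37-fold in iWAT (2.67 ± 0.37, adjusted p = 1.78e-05). In Cont cells the siRNA effect was -0.15 ± 0.29 in eWAT (adjusted p = 0.771) and 0.24 ± 0.31 in iWAT (adjusted p = 0.653). The difference between these siRNA effects, aKO minus Cont, was 3.04 ± 0.44 in eWAT (adjusted p = 4.46e-04) and 2.43 ± 0.49 in iWAT (adjusted p = 0.00888). Under siC/EBPb the genotype contrast was turned round: Ptgs2 was higher in aKO than in Cont cells by 1.21 ± 0.27 in eWAT (adjusted p = 0.00663) and 1.09 ± 0.28 in iWAT (adjusted p = 0.0152).

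The 2 libraries that stood apart carried part of the size of these changes. In a fit of 22 libraries without aKO siC/EBPb replicate 1 of both depots, the rise with siC/EBPb in aKO cells was 2.43 in eWAT and 2.30 in iWAT (adjusted p = 3.61e-13 and 8.84e-12). The excess of aKO over Cont cells under siC/EBPb was then 0.75 in eWAT and 0.72 in iWAT (adjusted p = 9.40e-05 and 1.61e-04), against 1.21 and 1.09 with all libraries. The siC/EBPb genotype calls were lost when only the groups of the contrast were fitted, at adjusted p = 0.172 in eWAT and 0.139 in iWAT, and in iWAT also without Cont siC/EBPb replicate 1 (0.0651) or without aKO siC/EBPb replicate 1 alone (0.72, adjusted p = 0.11).

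**Figure D1:**
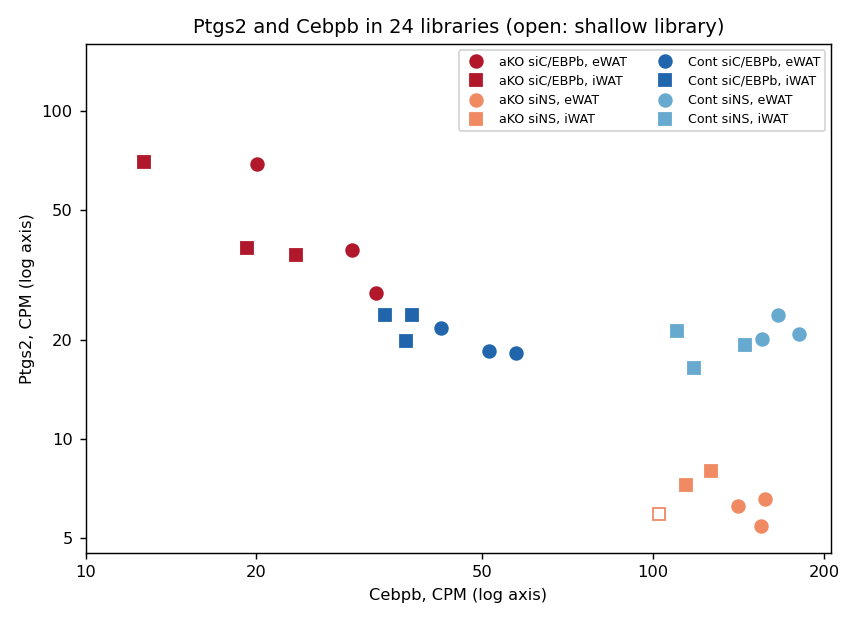
Ptgs2 against Cebpb in CPM, both on log axes, with 1 point for each of the 24 libraries, by genotype, siRNA and depot. Within aKO libraries low Cebpb went with high Ptgs2, from 5.44 to 70.1 CPM of Ptgs2, while Cont libraries stayed between 16.5 and 23.9 CPM with either siRNA. Under siC/EBPb, Cebpb was 12.7 to 32.5 CPM in aKO and 33.7 to 57.3 CPM in Cont libraries. The genotypes are therefore not compared at the same low level of Cebpb.

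Ptgs1, which encodes the cyclooxygenase that most cells keep on, fell with genotype and rose in aKO cells with the siRNA, as Ptgs2 did, but without passing the level of Cont cells. In eWAT, Ptgs1 had 25.2, 18.2 and 19.4 CPM in aKO siC/EBPb, 9.46, 8.86 and 10.2 CPM in aKO siNS, 26.3, 28.5 and 31.2 CPM in Cont siC/EBPb, and 28.3, 24.5 and 35.4 CPM in Cont siNS. In iWAT it had 25.1, 17.8 and 20.4 CPM in aKO siC/EBPb, 9.80, 7.89 and 10.2 CPM in aKO siNS, 26.3, 28.4 and 26.5 CPM in Cont siC/EBPb, and 25.2, 24.4 and 26.9 CPM in Cont siNS. The aKO siNS libraries lay below all others in both depots, and the aKO siC/EBPb libraries lay between them and most Cont libraries. The shallow iWAT aKO siNS library held 4 counts of Ptgs1.

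With siNS, Ptgs1 was 3.09-fold lower in aKO than in Cont cells of eWAT (-1.63 ± 0.14, adjusted p = 1.99e-09) and 2.56-fold lower in iWAT (-1.36 ± 0.16, adjusted p = 1.36e-06). In aKO cells siC/EBPb raised it by 1.14 ± 0.14 in eWAT (adjusted p = 2.92e-07) and 1.08 ± 0.16 in iWAT (adjusted p = 7.93e-06). In Cont cells the changes were -0.03 ± 0.12 and 0.09 ± 0.13 and were not called (adjusted p = 0.868 and 0.69). The siRNA effects differed between genotypes by 1.18 ± 0.18 in eWAT (adjusted p = 2.54e-04) and 1.00 ± 0.21 in iWAT (adjusted p = 0.00571), and both calls held under every alternative run. Under siC/EBPb, Ptgs1 was lower in aKO than in Cont cells by -0.45 ± 0.12 in eWAT (adjusted p = 0.0151) and by -0.36 ± 0.13 in iWAT, which was not called (adjusted p = 0.076). The eWAT call was lost without Cont siC/EBPb replicate 3 (0.0968), aKO siC/EBPb replicate 2 (0.103) or replicate 3 (0.0765). In iWAT it was reached without aKO siC/EBPb replicate 1 (0.0196) and in the 22-library fit (-0.52, adjusted p = 0.00646), and in a fit with the replicate number as a block (-0.37, adjusted p = 0.0437). It was also reached without a filter (0.0378), by voom with sample weights (0.00346) and in the groups of the contrast alone (0.0305).

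The balance of the cyclooxygenases moved with the combination of genotype and siRNA. As a share of the summed RPKM of Ptgs1 and Ptgs2, Ptgs2 made up 62.9 ± 6.73% in eWAT aKO siC/EBPb, 35.2 ± 3.72% in aKO siNS, 36.7 ± 2.98% in Cont siC/EBPb and 38.8 ± 6.0% in Cont siNS (SD, n = 3 each). In iWAT the shares were 65.0 ± 5.07%, 39.1 ± 0.755%, 41.3 ± 2.16% and 38.7 ± 4.25% in the same order of groups. The 6 aKO siC/EBPb libraries held 56.5% to 70.3% and the other 18 held 31.2% to 45.2%. The share was similar in aKO siNS and Cont siNS cells, where both genes differed in level.

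**Figure D2:**
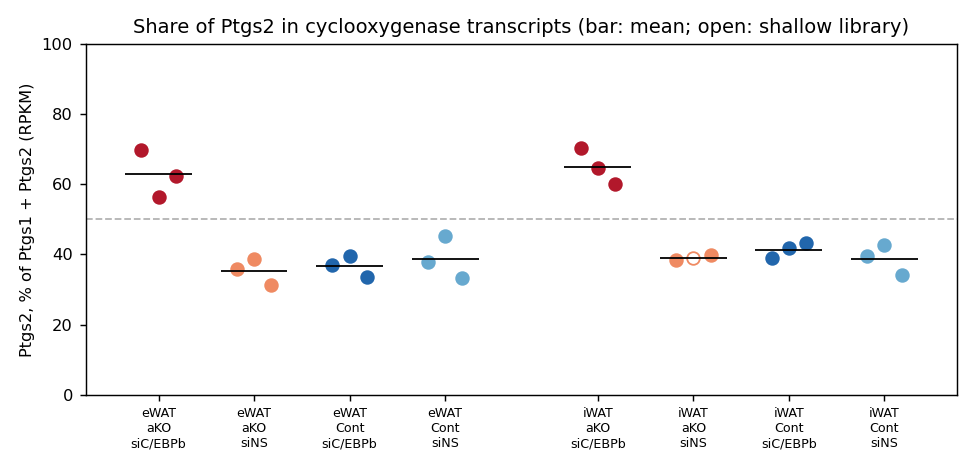
Ptgs2 as a percent of the summed RPKM of Ptgs1 and Ptgs2, with 1 point per library and a bar at each group mean; the open point is the shallow library. Ptgs2 was the larger part, 56.5% to 70.3%, in the 6 aKO siC/EBPb libraries and 31.2% to 45.2% in the others.

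Ptgis was lower in aKO cells with either siRNA and did not respond to siC/EBPb. It encodes prostacyclin synthase. In eWAT, Ptgis had 55.0, 65.6 and 55.8 CPM in aKO siC/EBPb, 63.3, 61.7 and 60.1 CPM in aKO siNS, 86.7, 78.9 and 88.8 CPM in Cont siC/EBPb, and 84.5, 92.4 and 85.8 CPM in Cont siNS. The iWAT libraries had 63.3, 61.2 and 56.8 CPM in aKO siC/EBPb, 62.1, 41.4 and 64.0 CPM in aKO siNS, 95.7, 85.1 and 92.6 CPM in Cont siC/EBPb, and 95.6, 103 and 97.4 CPM in Cont siNS. Every aKO library lay below every Cont library of its depot. The genotype change was -0.51 ± 0.08 in eWAT and -0.68 ± 0.09 in iWAT with siNS (adjusted p = 1.62e-05 and 1.83e-06), and -0.53 ± 0.08 and -0.59 ± 0.08 with siC/EBPb (adjusted p = 1.82e-05 and 5.00e-06). The 4 siRNA contrasts had adjusted p-values from 0.316 to 0.857, and no call of Ptgis changed under any alternative.

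Ptges, the inducible synthase of prostaglandin E2, fell with siC/EBPb in both genotypes and by more in aKO cells, with small changes and tight replicates. In eWAT it had 48.5, 51.7 and 51.6 CPM in aKO siC/EBPb, 67, 68.4 and 68.7 CPM in aKO siNS, 58.5, 52.7 and 59.4 CPM in Cont siC/EBPb, and 60.3, 64.9 and 64.9 CPM in Cont siNS. In iWAT it had 47.0, 49.1 and 46.6 CPM in aKO siC/EBPb, 70.8, 65.1 and 70.1 CPM in aKO siNS, 58.3, 56.1 and 56.6 CPM in Cont siC/EBPb, and 63.9, 65.4 and 67.2 CPM in Cont siNS. In each genotype and depot every siC/EBPb library was below every siNS library. In aKO cells the siRNA change was -0.43 ± 0.06 in eWAT and -0.56 ± 0.06 in iWAT (adjusted p = 1.05e-06 and 9.06e-08), and in Cont cells it was -0.16 ± 0.06 and -0.20 ± 0.06 (adjusted p = 0.0453 and 0.0142). The difference between them, aKO minus Cont, was -0.27 ± 0.08 in eWAT (adjusted p = 0.0449) and -0.36 ± 0.09 in iWAT (adjusted p = 0.0179).

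The eWAT Cont call of Ptges was lost without a filter (0.323), with the replicate block (0.0527) and without Cont siNS replicate 2 (0.148) or 3 (0.134) or Cont siC/EBPb replicate 1 (0.0537) or 2 (0.218), and the iWAT Cont call without a filter (0.25) and without Cont siC/EBPb replicate 2 (0.0567). The eWAT interaction was lost without a filter (0.356), in the groups of the contrast alone (0.0543), with the replicate block (0.0504), in 22 libraries (0.139) and without each of 9 single libraries, at 0.055 to 0.147: Cont siNS 1, 2 and 3, Cont siC/EBPb 1 and 3, aKO siNS 1, 2 and 3 and aKO siC/EBPb 1. The iWAT interaction was lost without a filter (0.197), in the groups alone (0.0546), and without Cont siNS 1 (0.0536), Cont siC/EBPb 1 (0.0519), aKO siNS 1 (0.068), aKO siNS 3 (0.0642) or aKO siC/EBPb 1 (0.0506). By genotype, Ptges was not called with siNS (0.10 ± 0.06 in both depots, adjusted p = 0.229 and 0.338), and with siC/EBPb it was lower in aKO than in Cont cells of iWAT (-0.26 ± 0.06, adjusted p = 0.0041; 0.166 without a filter) and not called in eWAT (-0.17 ± 0.06, adjusted p = 0.065; 0.0228 without Cont siC/EBPb replicate 2).

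The ratio of Ptgis to Ptges in RPKM was lowest in aKO siNS cells. In eWAT the ratio was 1.78 ± 0.149 in aKO siC/EBPb, 1.39 ± 0.0542 in aKO siNS, 2.28 ± 0.0119 in Cont siC/EBPb and 2.12 ± 0.0825 in Cont siNS, and in iWAT it was 1.95 ± 0.105, 1.24 ± 0.230, 2.45 ± 0.108 and 2.31 ± 0.0912 in the same order (SD, n = 3 each). The iWAT aKO siNS libraries had 1.34, 0.975 and 1.40. The 0.975 was that of the shallow library, from 21 counts of Ptgis and 33 of Ptges. Ptgds, which makes prostaglandin D2, had 9 counts in all, in 8 libraries and at most 2 in any of them, so no change was detectable at this depth.

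**Figure D3:**
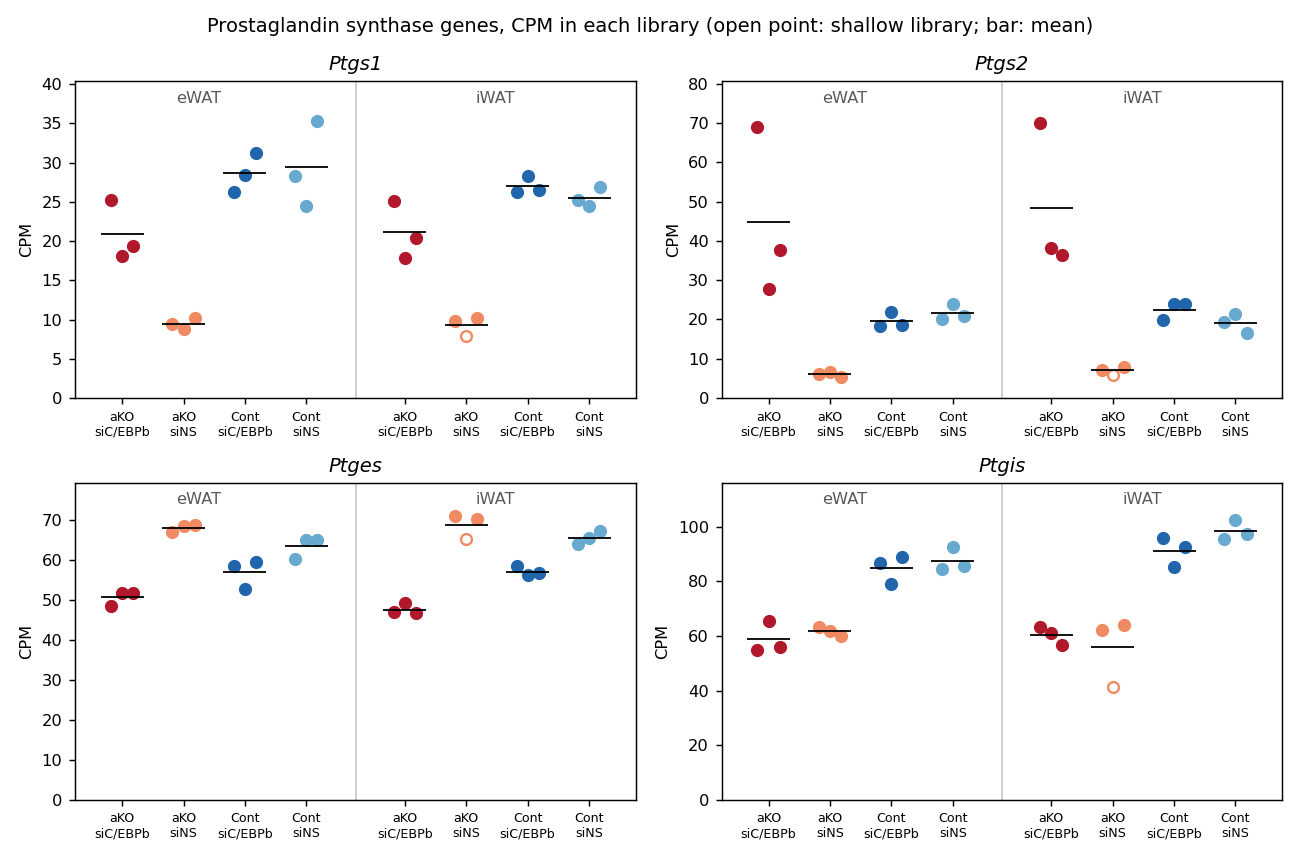
CPM of Ptgs1, Ptgs2, Ptges and Ptgis in each library, by group and depot, with a bar at each group mean; the open point is the shallow library. Ptgs2 and Ptgs1 were lowest in aKO siNS libraries, Ptgis was lower in all aKO than in Cont libraries of its depot, and Ptges was lowest in aKO siC/EBPb libraries.

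Ptger3 fell with siC/EBPb in both genotypes, and of the 4 tested receptors it had the most negative fold change in aKO cells. It encodes EP3, which couples to inhibitory G proteins and lowers cAMP. In eWAT, Ptger3 had 2.29, 5.68 and 5.67 CPM in aKO siC/EBPb, 15.0, 13.6 and 15.7 CPM in aKO siNS, 6.21, 4.96 and 8.19 CPM in Cont siC/EBPb, and 10.5, 10.0 and 10.5 CPM in Cont siNS. The iWAT libraries had 2.07, 5.56 and 4.71 CPM in aKO siC/EBPb, 12.5, 11.8 and 15.8 CPM in aKO siNS, 5.51, 4.60 and 5.94 CPM in Cont siC/EBPb, and 10.8, 8.21 and 7.93 CPM in Cont siNS. All siC/EBPb libraries were below all siNS libraries of the same genotype and depot, and the 3 aKO siNS libraries were the highest of their depot, the shallow one with 6 counts.

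In aKO cells siC/EBPb lowered Ptger3 3.28-fold in eWAT (-1.71 ± 0.25, adjusted p = 7.58e-06) and 3.41-fold in iWAT (-1.77 ± 0.28, adjusted p = 3.26e-05), and the 22-library fit gave -1.39 and -1.45. In Cont cells it lowered Ptger3 by -0.68 ± 0.24 in eWAT (adjusted p = 0.0387) and -0.77 ± 0.28 in iWAT (adjusted p = 0.0454). Both calls were lost without single libraries, and the eWAT call also by DESeq2 (0.0523). The adjusted p in eWAT was 0.0907, 0.0749 and 0.0813 without Cont siNS 1, 2 and 3, and 0.103 and 0.158 without Cont siC/EBPb 1 and 2. In iWAT the values were 0.211 and 0.0651 without Cont siNS 1 and 2, 0.093, 0.159 and 0.0662 without Cont siC/EBPb 1, 2 and 3, and 0.057 without the shallow library. The genotype change with siNS was 0.52 ± 0.22 in eWAT and 0.63 ± 0.26 in iWAT and was not called (adjusted p = 0.103 and 0.108), although the groups did not overlap and voom with sample weights called both (0.0278 and 0.0416). Without a filter both were called as well (0.00109 and 4.95e-04), and the groups of the contrast alone called the eWAT change (8.65e-04). The difference between the siRNA effects was -1.03 ± 0.35 in eWAT and -1.0 ± 0.40 in iWAT and was not called (adjusted p = 0.0812 and 0.188), while the fit without a filter called both (5.44e-05 and 0.00185). By voom with sample weights the eWAT difference was called (0.0203). Within each depot, Ptger3 and the summed adipocyte markers were both highest in aKO siNS cells and lower with siC/EBPb than with siNS. In aKO siC/EBPb replicate 1 both were lowest. The siC/EBPb groups of eWAT did not share an order. Their median marker sums were 1134 CPM in aKO and 1071 CPM in Cont cells, and mean Ptger3 was 4.55 and 6.45 CPM. With siNS the median marker sum of each genotype was higher in iWAT than in eWAT, and mean Ptger3 was not. With siC/EBPb, 9 of 10 adipocyte markers fell in aKO cells of eWAT and 8 in iWAT, where 19.1% and 17.7% of all tested genes were called lower, and 3 fell in Cont cells of each depot (14.9% and 14.0% of all genes). The part of adipocyte content in these values was not tested.

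Ptgfr fell with siC/EBPb in all 4 contrasts. It encodes FP, the receptor of prostaglandin F2α. In eWAT, Ptgfr had 6.61, 6.86 and 7.39 CPM in aKO siC/EBPb, 15.6, 15.7 and 15.9 CPM in aKO siNS, 4.89, 5.02 and 4.66 CPM in Cont siC/EBPb, and 11.8, 14.4 and 13.8 CPM in Cont siNS. In iWAT it had 8.03, 7.46 and 7.99 CPM in aKO siC/EBPb, 16.8, 5.92 and 19.98 CPM in aKO siNS, 8.17, 5.94 and 6.66 CPM in Cont siC/EBPb, and 12.6, 13.4 and 13.7 CPM in Cont siNS. The groups with different siRNA did not overlap, except through the shallow iWAT aKO siNS replicate 2, whose 5.92 CPM was 3 counts. The siRNA change was -1.18 ± 0.12 and -1.19 ± 0.13 in aKO cells of eWAT and iWAT (adjusted p = 1.27e-08 and 5.35e-08), and -1.45 ± 0.13 and -0.94 ± 0.14 in Cont cells (adjusted p = 1.98e-09 and 4.75e-06). By genotype, Ptgfr was higher in aKO than in Cont cells of iWAT with siNS (0.44 ± 0.13, adjusted p = 0.0179; 0.0754 without Cont siNS 1 and 0.322 without aKO siNS 3) and of eWAT with siC/EBPb (0.52 ± 0.14, adjusted p = 0.0171; 0.0552 and 0.0674 without Cont siC/EBPb 1 and 3, 0.0688 without aKO siC/EBPb 3). DESeq2 called neither (adjusted p = 0.135 and 0.0675).

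Ptger4, which encodes the cAMP-raising receptor EP4, was called lower with siC/EBPb in 2 of the 4 siRNA contrasts and in no genotype contrast. In eWAT it had 7.53, 4.87 and 5.18 CPM in aKO siC/EBPb, 7.77, 6.43 and 7.57 CPM in aKO siNS, 5.42, 5.09 and 5.92 CPM in Cont siC/EBPb, and 9.23, 8.13 and 8.11 CPM in Cont siNS. The iWAT libraries had 6.27, 5.49 and 5.30 CPM in aKO siC/EBPb, 7.31, 3.95 and 8.97 CPM in aKO siNS, 5.13, 6.46 and 6.10 CPM in Cont siC/EBPb, and 9.69, 6.62 and 7.33 CPM in Cont siNS. The Cont groups with different siRNA did not overlap in either depot, and the aKO groups overlapped in both. In iWAT the aKO overlap came only from the shallow aKO siNS replicate 2, whose 3.95 CPM was 2 counts. The siRNA change was -0.63 ± 0.16 in Cont cells of eWAT (adjusted p = 0.00273) and -0.50 ± 0.18 in aKO cells of iWAT (adjusted p = 0.0362), and the iWAT call was lost without aKO siNS replicate 3 (-0.30, adjusted p = 0.388) or aKO siC/EBPb replicate 2 (0.104) or 3 (0.095), by DESeq2 (0.0923), without a filter (0.0535) and in the groups of the contrast alone (0.102). It was -0.43 ± 0.17 in Cont cells of iWAT (adjusted p = 0.0683; 0.0365 without Cont siNS replicate 2) and -0.30 ± 0.16 in aKO cells of eWAT (adjusted p = 0.155; -0.52, adjusted p = 0.0178 without aKO siC/EBPb replicate 1). The Ptger4 exons overlap those of Ttc33 over 82 bases and of Gm15937 over 1015 bases on the opposite strand, and whether the counting used strand is not stated in the labels.

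The ratio of Ptger3 to Ptger4, the cAMP-lowering against the cAMP-raising prostaglandin E2 receptor, was 0.999 ± 0.559 in eWAT aKO siC/EBPb, 2.39 ± 0.114 in aKO siNS, 1.36 ± 0.239 in Cont siC/EBPb and 1.43 ± 0.0878 in Cont siNS, in RPKM (SD, n = 3 each). In iWAT it was 0.869 ± 0.426, 2.52 ± 0.855, 1.08 ± 0.218 and 1.34 ± 0.0977 in the same order of groups. Replicate 1 of aKO siC/EBPb set the low mean of that group, with 0.356 against 1.36 and 1.28 in the other eWAT libraries and 0.385 against 1.18 and 1.04 in iWAT. Those other libraries lay within the range of Cont siC/EBPb, which was 1.14 to 1.62 in eWAT and 0.833 to 1.26 in iWAT. The aKO siNS cells had the highest ratio in both depots, and each of their libraries, at 1.99 to 3.51, exceeded all others. The 3.51 was that of the shallow iWAT library, from 6 counts of Ptger3 and 2 of Ptger4. The other iWAT aKO siNS libraries had 1.99 and 2.06.

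Ptger1 and Ptger2 were close to the limit of detection. Ptger1, for the calcium-coupled receptor EP1, had 3 to 35 counts per library, and the assignment of these reads to Ptger1 is uncertain. It was called lower with siC/EBPb in eWAT, at -1.04 ± 0.33 in aKO cells (adjusted p = 0.0136; 0.0636 by DESeq2, 0.0699 without aKO siC/EBPb replicate 1) and -0.77 ± 0.28 in Cont cells (adjusted p = 0.0427). The Cont call was lost by DESeq2 (0.181), without a filter (0.0534) and without Cont siNS replicate 1 (0.208) or 2 (0.0619) or Cont siC/EBPb replicate 1 (0.0633) or 3 (0.188), and no other contrast called Ptger1. Ptger2, for the cAMP-raising receptor EP2, had 95 counts in 21 libraries. Its 3 eWAT libraries summed to 1 count in aKO siC/EBPb, 15 in aKO siNS, 15 in Cont siC/EBPb and 28 in Cont siNS. In iWAT the sums were 4, 7, 10 and 15. The depth-scaled ratio of aKO siC/EBPb to aKO siNS in eWAT was 0.0667, with an exact 95% interval for counting error of 0.00159 to 0.434. The same ratio was 0.378 (0.0812 to 1.49) in iWAT, and that of Cont siC/EBPb to Cont siNS was 0.527 (0.262 to 1.02) in eWAT and 0.576 (0.231 to 1.37) in iWAT, so these 3 intervals include 1. A fit without the filter on low counts called Ptger2 lower in eWAT aKO siC/EBPb cells than in aKO siNS (adjusted p = 0.00408) and Cont siC/EBPb cells (adjusted p = 0.0142), and in no other contrast.

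**Figure D4:**
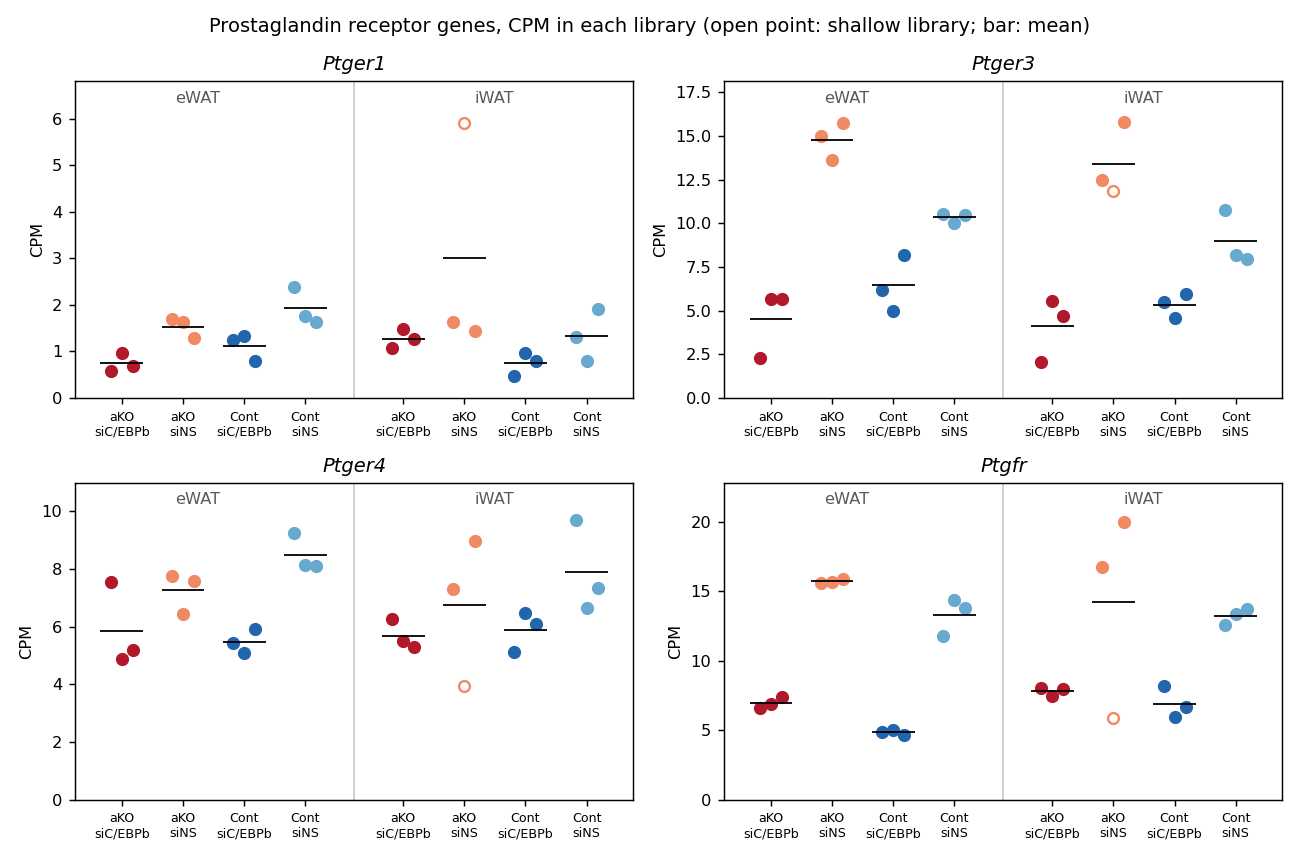
CPM of Ptger1, Ptger3, Ptger4 and Ptgfr in each library, by group and depot, with a bar at each group mean; the open point is the shallow library. Ptger3 and Ptgfr were lower in siC/EBPb than in siNS libraries of the same genotype and depot, apart from the shallow library for Ptgfr.

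Counted by comparison, the genes did not form 1 block. For aKO over Cont with siNS, 0 of 8 tested members were higher and 3 lower in eWAT, where 9.5% of all tested genes were higher and 10.9% lower (20.4% in all), and 1 was higher and 3 lower in iWAT (7.32% and 7.85% of all genes, 15.2% in all). With siC/EBPb, 2 were higher and 2 lower in eWAT (3.9% and 6.87% of all genes, 10.8% in all), and 1 higher and 2 lower in iWAT (3.52% and 6.51%, 10.0% in all). For siC/EBPb over siNS in aKO cells, 2 were higher and 4 lower in eWAT (16.6% and 19.1%, 35.7% in all) and likewise in iWAT (13.6% and 17.7%, 31.3% in all). In Cont cells 0 were higher and 5 lower in eWAT (11.8% and 14.9%, 26.8% in all), and 0 higher and 3 lower in iWAT (10.3% and 14.0%, 24.3% in all). The interaction called 2 members upward, Ptgs1 and Ptgs2, and 1 downward, Ptges, in each depot, where 3.01% and 3.33% of all genes were called in eWAT (6.34% in all) and 1.32% and 2.19% in iWAT (3.51% in all). The 22-library fit also called 2 higher and 4 lower for the siRNA in aKO cells of each depot, but in eWAT Ptger4 was among the lower genes (-0.54, adjusted p = 0.0145) and Ptger1 was not (adjusted p = 0.0669). Of all 14785 genes this fit called 1899 higher and 2454 lower in eWAT, and 1551 and 2176 in iWAT. For genotype with siC/EBPb it called 2 members higher and 2 lower in eWAT (438 and 762 of all 14785 genes). In iWAT it called 1 higher and 3 lower (325 and 707 of all genes). In the eWAT interaction it called Ptgs1 and Ptgs2 but not Ptges, where 246 of all 14785 genes were called upward and 307 downward. The count of 5 in eWAT Cont cells was 2 without Cont siC/EBPb replicate 1 or Cont siNS replicate 2. There 1936 and 1850 of all 14785 genes were lower, against 2208 in the full fit. It was 3 without Cont siC/EBPb replicate 2 (1985 genes lower) and without Cont siNS replicate 1 or 3 (1914 and 2019). DESeq2 (1965 of 14777 genes lower) and the fit without a filter (2178 of 30184) also gave 3. The count of 3 in iWAT Cont cells was 1 without Cont siC/EBPb replicate 2, where 1704 of all 14785 genes were lower (2075 in the full fit).

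The libraries of the 2 groups did not overlap for 7 of 8 members in the siNS genotype contrast of eWAT (39.3% of all genes) and for 4 in iWAT (25.8%), and under siC/EBPb for 5 in eWAT (29.0%) and 5 in iWAT (31.6%). For the siRNA they did not overlap for 6 members in aKO cells of eWAT (46.3%) and 4 of iWAT (35.1%), and for 5 in Cont cells of eWAT (45.9%) and 4 of iWAT (42.8%). The median change over the 8 members was -0.28 and 0.05 for genotype with siNS in eWAT and iWAT, and -0.36 and -0.43 for the siRNA in aKO cells, where the medians of all tested genes were 0.0036, -0.00087, -0.0011 and -0.0062 in the same order.

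**Figure D5:**
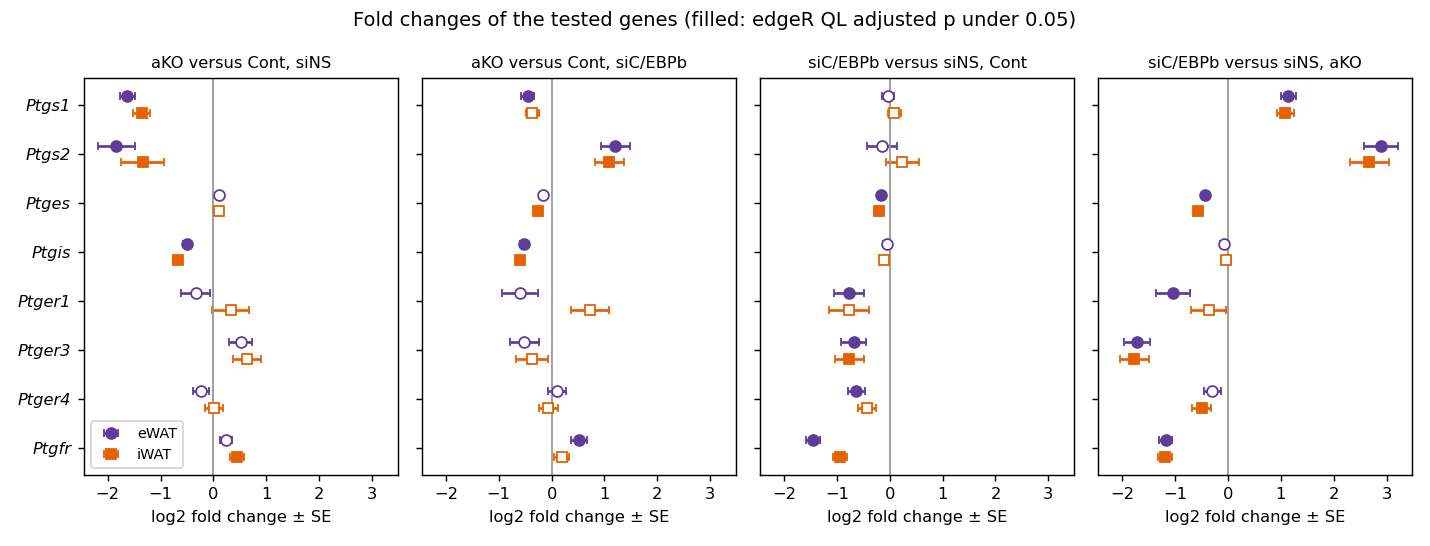
Log2 fold change with its standard error for the 8 tested members, in panels of genotype or siRNA contrasts, circles for eWAT and squares for iWAT, filled where the adjusted p was under 0.05. Ptgs2 lies at -1.84 and -1.34 for genotype with siNS, and at 2.89 and 2.67 for siC/EBPb in aKO cells.

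No member was called between the depots. For iWAT over eWAT in Cont siNS cells 0 of 8 were called (1.2% of all genes, 178), and in aKO siNS cells 0 of 8 (0.352%, 52). The difference of the genotype effect and of the siRNA effect between depots was called for 0 of 14785 genes (0.0%) by edgeR and by voom and for 0 of 14777 by DESeq2, while edgeR had 415 genes (2.81%) and 428 genes (2.89%) at an unadjusted p under 0.05. The largest such value among members in Cont cells was that of Ptgfr, whose siRNA effect was 0.51 ± 0.19 less negative in iWAT (adjusted p = 1.0).

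Other genes of the eicosanoid pathway were counted from a list of 54 symbols, of which 51 matched and 37 were tested. For siC/EBPb over siNS in aKO cells, 17 were lower and 3 higher in eWAT (19.1% and 16.6% of all tested genes) and 15 lower and 2 higher in iWAT (17.7% and 13.6%). In Cont cells 15 were lower and 3 higher in eWAT (14.9% and 11.8% of all genes) and 14 lower and 2 higher in iWAT (14.0% and 10.3%). For aKO over Cont with siNS, 11 were lower and 8 higher in eWAT (10.9% and 9.5% of all genes) and 9 lower and 9 higher in iWAT (7.85% and 7.32%). The iWAT genotype counts rested on single libraries, with 7 lower and 5 higher without aKO siNS replicate 1 and 6 lower and 1 higher without aKO siNS replicate 3. Of all 14785 genes, 867 were lower and 860 higher without replicate 1, and 755 and 684 without replicate 3. The full fit had 1161 lower and 1082 higher. The higher genes with the siRNA in Cont cells were 1 without eWAT Cont siNS replicate 1 or 2, where 1312 and 1276 of all genes were higher (1750 in the full fit). In iWAT they were 0 without Cont siNS replicate 2 (1120 of all genes higher, 1522 in the full fit). They were 1 without Cont siNS replicate 3 (1229 of all genes) or Cont siC/EBPb replicate 3 (1202). In 22 libraries the siRNA in aKO cells called 16 lower and 1 higher in eWAT (2454 and 1899 of all 14785 genes) and 13 lower and 1 higher in iWAT (2176 and 1551). The medians of the 37 were -0.15 and -0.22 for the siRNA in aKO cells and 0.01 and -0.03 for genotype with siNS, beside all-gene medians of -0.0011, -0.0062, 0.0036 and -0.00087.

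Upstream of the cyclooxygenases, Pla2g4a, the cytosolic phospholipase that frees arachidonic acid, had the same direction in aKO siNS cells as Ptgs1 and Ptgs2. It averaged 43.3 ± 6.03 CPM in eWAT aKO siC/EBPb, 33.9 ± 3.26 in aKO siNS, 40.8 ± 1.20 in Cont siC/EBPb and 48.7 ± 2.48 in Cont siNS (SD, n = 3 each). With siNS it was lower in aKO than in Cont cells, by -0.52 ± 0.09 in eWAT (adjusted p = 1.23e-04) and -0.44 ± 0.10 in iWAT (adjusted p = 0.00401; 0.0714 in the groups of the contrast alone). In aKO cells siC/EBPb raised it by 0.35 ± 0.09 in eWAT (adjusted p = 0.00341; 0.0568 in 22 libraries) and 0.33 ± 0.10 in iWAT (adjusted p = 0.0143; 0.053 without aKO siC/EBPb replicate 3). In Cont cells it was called lower with siC/EBPb in eWAT (-0.26 ± 0.09, adjusted p = 0.0334) and not in iWAT (-0.14 ± 0.09, adjusted p = 0.315), where Ptgs1 and Ptgs2 were not called in either depot. The eWAT Cont call was lost by DESeq2 and without any of 5 single libraries, all but Cont siNS replicate 2, at adjusted p-values up to 0.138. The interaction was 0.61 ± 0.13 in eWAT (adjusted p = 0.00418) and 0.47 ± 0.14 in iWAT (adjusted p = 0.0564; 0.0438 with the replicate block).

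Of 6 genes of prostaglandin breakdown and transport, Hpgd and Slco2a1 were lower and Ptgr2 and Slco3a1 higher in aKO than in Cont cells with siNS, in both depots. Hpgd, which inactivates prostaglandins by oxidising them, averaged 0.536 CPM in eWAT aKO siC/EBPb, 2.20 in aKO siNS, 2.12 in Cont siC/EBPb and 6.35 in Cont siNS. With siNS its genotype change was -1.54 ± 0.21 in eWAT and -1.41 ± 0.23 in iWAT (adjusted p = 3.18e-06 and 8.42e-05), and siC/EBPb lowered it by -2.02 ± 0.33 and -1.66 ± 0.32 in aKO cells and by -1.58 ± 0.20 and -1.62 ± 0.21 in Cont cells. Slco2a1, the prostaglandin uptake transporter, averaged 42.1 CPM in eWAT aKO siC/EBPb, 48.7 in aKO siNS, 55.8 in Cont siC/EBPb and 79.6 in Cont siNS, with a genotype change of -0.71 ± 0.07 with siNS (adjusted p = 1.20e-08) and -0.41 ± 0.07 with siC/EBPb (adjusted p = 1.61e-04).

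In each of the 4 siRNA contrasts all 9 tested macrophage and leukocyte markers fell, where 14.0% to 19.1% of all tested genes were called lower. The 1 tested mast cell marker was called in none of them. From the pathway list, 3 genes that leukocytes are known to express also fell. Tbxas1, thromboxane synthase, fell by 2.27 in eWAT aKO cells and by 1.68 in eWAT Cont cells on the log2 scale with siC/EBPb (adjusted p = 7.63e-08 and 2.66e-08). Hpgds, the haematopoietic prostaglandin D2 synthase, fell by 2.45 and 1.32 in the same contrasts (adjusted p = 8.95e-09 and 2.97e-06). Alox5ap, which presents arachidonic acid to 5-lipoxygenase, fell by 2.66 and 1.87 (adjusted p = 2.37e-10 and 3.91e-09). The leukocyte sum of aKO siC/EBPb libraries, where Ptgs2 was highest, was the lowest of all groups in both depots. The part of leukocyte content in the levels of Ptgs2 and of these 3 genes was not tested.

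Of 15 genes that respond to cAMP, the second messenger of EP2, EP3 and EP4, 14 were tested. In aKO cells siC/EBPb raised 3 of them in each depot, Nr4a1, Nr4a2 and Nr4a3 (16.6% of all tested genes rose in eWAT and 13.6% in iWAT), and lowered 5 in eWAT and 6 in iWAT (19.1% and 17.7%). In Cont cells 1 rose in each depot (11.8% and 10.3%), and 6 fell in eWAT and 7 in iWAT (14.9% and 14.0%). In iWAT, 2 of the 3 rises were called in 22 libraries and 1, that of Nr4a2, without aKO siNS replicate 1. Of all 14785 genes these fits called 1551 and 1520 higher, against 2013 in the full fit. In aKO over Cont cells with siNS, 1 was higher in each depot, Ppargc1a (9.5% of all genes in eWAT and 7.32% in iWAT), and 5 in eWAT and 1 in iWAT were lower (10.9% and 7.85%). The 5 were 3 without Cont siNS replicate 1 or aKO siNS replicate 3, where 1237 and 1136 of all genes were lower (1608 in the full fit). The 1 in iWAT was 0 without Cont siNS replicate 2 or aKO siNS replicate 1, where 986 and 867 of all genes were lower (1161 in the full fit). The median over the 14 was -0.15 and -0.27 for the siRNA in aKO cells of eWAT and iWAT, beside -0.0011 and -0.0062 over all genes.

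Over the 8 group means of log2 CPM, the genes most like Ptgs2 were Frmd4a (Pearson r = 0.989), Inhba (0.980) and Msn (0.980), and those most like Ptgs1 were Nrcam (0.995), Skil (0.987) and Tro (0.986), among 11551 genes compared. Ptger3 was most like Pex11a (0.997), Ace (0.994) and Islr (0.993), and Ptgfr was most like Ret (0.979), Tifa (0.977) and Scd2 (0.976). Between members, r was 0.737 for Ptgs1 and Ptgs2, -0.888 for Ptgs2 and Ptges, -0.918 for Ptgs2 and Ptger3, and 0.963 for Ptges and Ptger3. These values describe 8 points that share libraries and depth, and carry no test.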

How the data were processed

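The deposited table held the authors' count of reads per gene, whole numbers for 53465 genes and 5 counter lines, in 24 libraries. The submitters' processing notes name cutadapt 2.7, TopHat2 2.1.1, HTSeq, edgeR and the GRCm38 build, with no role given for each. The counter lines (27.5% to 39.5% of listed reads, 95.9% in the shallow library) stayed out. Per-sample files were not used. A measurement that bears on the reads of Ptger1 is not reported here. Groups came from the labelled depot, genotype and siRNA. Symbols and exonic lengths came from GENCODE M21, which named 53360 genes.

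Counts were fitted in R 4.3.3 with edgeR 4.0.16: filterByExpr with a minimum count of 10, TMM, 8 group means, glmQLFit with robust dispersion, 16 residual degrees of freedom, 14 contrasts with Benjamini-Hochberg adjustment and a threshold of 0.05. The script was tested on simulated data. RPKM is CPM per 1000 exonic bases. Exact 95% intervals cover counting error only. The genes named are the members, Cebpb, Senp2, the pathway and marker lists and, for each member, the 3 genes of highest r among genes averaging log2 CPM 1 or more, predicted symbols left out; Nr4a1, Nr4a2, Nr4a3 and Ppargc1a were chosen after their values were seen. The members and lists were chosen with earlier results of these data known.

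Alternatives were DESeq2 1.42.0 size factors and Wald test, limma 3.58.1 voom with sample weights, no filter, a filter asking for CPM 1 in 12 libraries, fits of only the contrast's groups, a replicate block, 23 libraries without the shallow one, and each library left out. The 22-library fit was added after seeing the data. Same-numbered libraries were checked for pairing across 8159 genes: deviations from group means correlated over 0.1 in 10 of 11 depot pairs, including the 3 of Cont siNS, which were taken as pairs, with mean r of -0.0648 for genotype and -0.0317 for siRNA, which were not. The depot pairs of aKO siC/EBPb had r of 0.748, 0.424 and 0.537. The same result in both depots is therefore not an independent replication.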

Additional observations from a re-analysis of the deposited data

Results flagged for a closer look

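The effect of siC/EBPb differed between the genotypes, by the test of the difference itself, for 3 members in both depots. For Ptgs2 the siRNA effect in aKO cells minus that in Cont cells was 3.04 in eWAT and 2.43 in iWAT on the log2 scale. For Ptgs1 the difference was 1.18 in eWAT and 0.996 in iWAT. For Ptges it was -0.272 in eWAT and -0.36 in iWAT, and these calls were lost under several alternatives. Every one of these 6 differences kept its sign under all alternatives run. In the 22-library fit the differences of Ptgs2 were 2.58 and 2.06 in eWAT and iWAT, and those of Ptgs1 were 1.01 and 0.85.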

How the results depend on the processing

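Over the 8 tested members and 14 contrasts, 112 results were recomputed in 1807 alternatives: 1706 kept their side of the threshold, 75 lost a call, 26 gained one and 0 changed sign among called values. Changes of sign where neither fit called the gene were counted among the 1706. The siRNA effect on Ptgs1 in eWAT Cont cells, for example, ranged from -0.15 to 0.12. The shallow library held 603585 gene counts, so Ptgs1, Ptgs2 and the 4 tested receptors rested there on 2 to 6 counts each. Counts of called genes moved by over 1.5 times as follows. With the groups of a contrast alone, iWAT called 743 genes for genotype with siNS (2243 in the full fit), 2374 for siRNA in aKO (4624), 290 for the interaction (519), and 709 (178) and 0 (52) between depots in Cont and aKO siNS cells. With voom, counts were 2568 for genotype with siC/EBPb in iWAT (1483), 5938 for siRNA in eWAT Cont (3958), 2059 and 1235 for the interaction in eWAT and iWAT (938 and 519), and 852 and 1091 between depots. Without a filter they were 921 for the iWAT interaction, 542 and 138 between depots, and 18 and 6 for the differences of genotype and siRNA effects between depots (0 each). With 23 libraries they were 1690 and 938 for the interactions and 1144 and 776 between depots; DESeq2 called 88 between depots in aKO siNS cells; the 22-library fit called 553 in the eWAT interaction. The causes were not tested.

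Leaving out 1 library in turn gave 2092 to 2656 and 1439 to 2750 called genes for genotype with siNS in eWAT and iWAT, 1098 to 1467 and 945 to 1238 with siC/EBPb, 4349 to 4961 and 3679 to 5271 for siRNA in aKO, 3126 to 3535 and 2835 to 3193 in Cont, 451 to 1105 and 289 to 938 for the interactions, 31 to 210 and 1 to 776 between depots, and 0 to 0 for both depot differences. With the replicate block, counts for genotype with siNS were 3054 and 2316, and for the interactions 1011 and 600; among members it moved Ptges (siRNA in eWAT Cont, and eWAT interaction) and Ptgs1 (genotype with siC/EBPb in iWAT) across the threshold, and no other call. Between depots in Cont siNS cells, where numbers pair, the block was 1 term per same-numbered pair of eWAT and iWAT libraries, and this fit called 143 genes.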

Other observations

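Ptgs2os, a transcript on the opposite strand beside the Ptgs2 start, lies outside the rule for named genes and was chosen after its values were seen. It was higher with siC/EBPb in eWAT aKO cells, with a mean of 0.787 CPM against 0.121 CPM with siNS (2.66 ± 0.59, adjusted p = 7.38e-04), and not called in iWAT aKO cells (1.40, adjusted p = 0.132). The counts of Ptgs2os in these eWAT groups summed to 34 with siC/EBPb and 5 with siNS. Ptgs2os2, a gene of similar name, averaged 0.731 CPM with siC/EBPb and 0.829 CPM with siNS in eWAT aKO cells. In iWAT aKO cells its means were 0.830 and 0.727 CPM.

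Mgll, whose enzyme frees arachidonic acid from the endocannabinoid 2-arachidonoylglycerol, was higher in aKO than in Cont cells with either siRNA. It averaged 72.9 CPM in eWAT aKO siC/EBPb, 74.7 in aKO siNS, 52.1 in Cont siC/EBPb and 49.7 in Cont siNS, with a genotype change of 0.59 ± 0.11 with siNS (adjusted p = 2.47e-04) and 0.49 ± 0.11 with siC/EBPb (adjusted p = 0.00289).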
